A study of Mus musculus with 25 samples.

Results

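Small extracellular vesicles (sEVs), the membrane-bound particles that cells shed, were compared between the livers of 14-month-old and 1-week-old mice by small RNA sequencing. The comparison used 10 of the 25 libraries of the series, chosen by their age labels alone: the 5 of 14 months (mice 21, 22, 23, 24 and 25) and the 5 of 1 week (mice 1, 3, 4, 5 and 27). Every mouse was a wild-type C57BL/6J animal and gave 1 library, and the sexes were balanced per the labels, which do not give the sex of a mouse. The remaining 15 libraries came from mice of 6 weeks, 6 months and 12 months, 5 at each age. Livers were dissociated with a tumour dissociation kit before ultracentrifugation, so the particles can come from any liver or blood cell, and fewer particles of a cell type cannot be told apart from less of a miRNA in each particle. The batch field in the labels only repeats the age, so age and any difference in handling or sequencing run cannot be told apart.

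A microRNA (miRNA) is a single strand of RNA, cut from the 5p or the 3p arm of a hairpin, that guides an Argonaute protein to messenger RNAs. Pairing rests mainly on the seed, bases 2 to 8 counted from the 5′ end, so miRNAs with 1 seed are expected to share many targets. The liver is known for miR-122, made by hepatocytes. Fetal and newborn tissues are known for the miRNAs of imprinted loci, where only the maternal or only the paternal copy of a gene is active, such as the large Dlk1-Dio3 cluster and the neighbouring H19 and Igf2 genes.

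The miRNAs on which the comparison turned are shown first, from RefSeq (GRCm38.p6, the build named mm10), each written 5′ to 3′ with its seed in capitals. The miR-29 family held the 3 largest rises among miRNAs of at least 50 CPM (counts scaled to a common library size, as a mean over the 10 libraries). Mir29a and Mir29b-1 lie on chromosome 6, with the mature miR-29a-3p at chr6:31062673-31062694 on the minus strand. Mir29b-2 and Mir29c lie in exons of the non-coding gene A330023F24Rik on chromosome 1, with miR-29c-3p at chr1:195037600-195037621 on the plus strand. Over the length that they share, miR-29a-3p and miR-29c-3p differed at 1 position (C10U, from the former to the latter), and miR-29b-3p and miR-29c-3p at 3 (A18G, G21U and U22A).
miR-29a-3p: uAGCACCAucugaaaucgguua
miR-29b-3p: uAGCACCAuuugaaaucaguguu
miR-29c-3p: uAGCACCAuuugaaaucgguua

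The deepest falls came from imprinted loci. In the Dlk1-Dio3 cluster, miR-379-5p is at chr12:109709065-109709085, miR-431-5p at chr12:109590459-109590479, miR-411-5p at chr12:109710190-109710210, and miR-382-5p, in an intron of the non-coding gene Mirg, at chr12:109733781-109733802, all on the plus strand. miR-483-5p lies in an intron of Igf2 (chr7:142654968-142654989, minus strand), and miR-675-3p in an exon of the non-coding gene H19 (chr7:142577078-142577099, minus strand). miR-298-5p lies near the Gnas locus (chr2:174267553-174267575, minus strand).
miR-379-5p: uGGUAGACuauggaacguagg
miR-431-5p: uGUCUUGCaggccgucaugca
miR-411-5p: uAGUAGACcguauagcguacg
miR-382-5p: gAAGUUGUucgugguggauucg
miR-483-5p: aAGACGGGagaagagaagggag
miR-675-3p: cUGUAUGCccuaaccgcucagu
miR-298-5p: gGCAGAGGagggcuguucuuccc

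Some miRNAs with the same seed were called in opposite directions, and 2 such groups are shown for that reason. let-7g-5p (intron of Wdr82, chr9:106178846-106178867, plus strand) and let-7i-5p (chr10:122985698-122985719, minus strand) differed at positions 17 and 19 (A17G and A19U). In the other group, miR-195a-5p (chr11:70235062-70235082, plus strand) stood apart from miR-322-5p (chrX:53054306-53054327, minus strand) and from miR-15b-5p (intron of Smc4, chr3:69009775-69009796, plus strand).
let-7g-5p: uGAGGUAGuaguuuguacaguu
let-7i-5p: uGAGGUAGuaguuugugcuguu
miR-195a-5p: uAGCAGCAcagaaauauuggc
miR-322-5p: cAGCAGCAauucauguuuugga
miR-15b-5p: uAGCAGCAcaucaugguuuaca

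The last 4 sequences belong to miR-194-5p, which had the smallest p of all, to both arms of miR-574, whose balance shifted most, and to the X-linked miR-741-3p, which had no count at 1 week. miR-194-5p is cut from hairpins at chr19:6264658-6264679 and chr1:185313325-185313346, both on the plus strand. The arms of miR-574, in an intron of Fam114a1, are at chr5:64970328-64970350 and chr5:64970364-64970385 on the plus strand, and miR-741-3p is at chrX:66796809-66796831 on the minus strand.
miR-194-5p: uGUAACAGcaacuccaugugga
miR-574-5p: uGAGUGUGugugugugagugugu
miR-574-3p: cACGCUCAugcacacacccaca
miR-741-3p: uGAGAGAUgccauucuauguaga

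The deposited table of raw counts had 1493 entries, of which 1095 were mouse miRNAs by name. The other 398, called unconservative and not explained in the labels, held 0.0840% of the counts in the 10 libraries. Library totals ran from 2095925 to 6888928 counts at 1 week, where mouse 27 was the deepest, and from 1543907 to 3989776 at 14 months. A floor of 3 counts equalled 0.283 to 0.911 CPM at 1 week and 1.01 to 2.24 CPM at 14 months, on the scaled CPM used throughout. Libraries of the same age all differed by more than counting noise (20 pairs). For 21 pairs of entries with a mean of at least 20 counts, no library showed a gap above 0.3 on the log2 scale. Such near-equal entries, miR-29a-3p with miR-29c-3p among them, are not independent results.

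Of the 391 entries with enough counts to test, 285 (72.9%) differed between 14 months and 1 week at an adjusted p under 0.05 by edgeR's quasi-likelihood test: 139 (35.5%) were higher and 146 (37.3%) lower. The balance of the directions depended on how libraries were scaled. TMM scaling, which assumes that most entries do not change, gave factors of 1.30 to 1.78 at 1 week and 0.720 to 0.931 at 14 months. With library totals in its place the median shift of the fold changes was -0.91 on the log2 scale, smaller for some scarce entries such as miR-741-3p (8.95 to 8.53), and 80 entries (20.5%) were higher and 206 (52.7%) lower. With DESeq2's size factors the median shift was -0.49, with 99 higher (25.3%) and 177 lower (45.3%). Under each of the 3 scalings, 80 entries were higher and 146 lower, and 5 entries were called in opposite directions by TMM and by library totals.

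The falls were deeper than the rises. At least a 2-fold change was fitted for 245 of the called entries (62.7% of those tested), 115 of them higher and 130 lower. At 8-fold the counts were 18 higher and 76 lower. At 32-fold they were 6 and 52, and 43 of the 52 belonged to the Dlk1-Dio3 cluster. CPM did not overlap between the ages for 207 of the 391 entries (52.9%). The filter bears on this asymmetry: 100 tested entries reached its level in no library of 14 months and 21 in none of 1 week. An entry kept through 1 age only was selected for its level at that age, which favours a difference but does not fix it. miR-26a-2-3p, for example, reached the level only at 1 week, but was fitted at 0.28 and was not called. Of the 279 that reached it at both ages, 125 (44.8%) were higher and 76 (27.2%) lower. The plot of fold change against level shows the Dlk1-Dio3 members far below zero at every level.

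**Figure D1:**
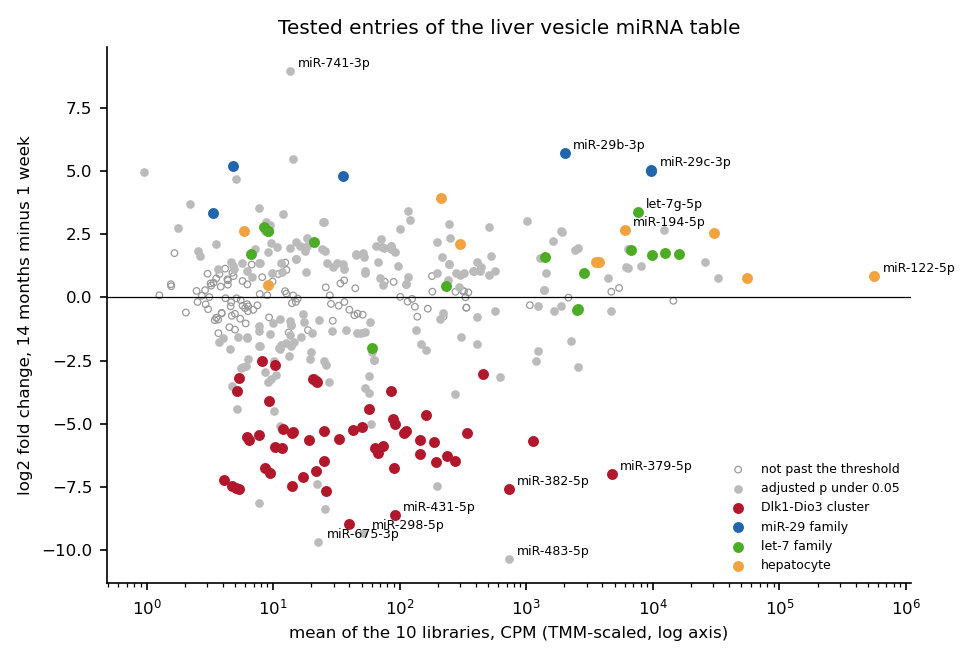
log2 fold change (14 months minus 1 week) of the 391 tested entries against their mean over the 10 libraries in TMM-scaled CPM on a log axis, with open circles for entries not past the threshold and colours for 4 lists. The red Dlk1-Dio3 members lie between -8.99 and -2.51, and the blue miR-29 members between 3.32 and 5.70.

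The miR-29 family, known for binding the mRNAs of collagens and other matrix proteins, rose the most. At 1 week miR-29b-3p stood at 80.0, 40.9, 97.1, 48.9 and 111 CPM in mice 1, 3, 4, 5 and 27. At 14 months it stood at 2878, 3070.1, 3977, 4050.0 and 5777 CPM in mice 21 to 25. The lowest library of 14 months was thus far above the highest of 1 week. The means were 75.6 ± 30.2 and 3950 ± 1148 CPM (SD, n = 5 each), and the log2 fold change was 5.70 ± 0.30 (SE; adjusted p = 1.91e-14 by edgeR's quasi-likelihood test with Benjamini-Hochberg adjustment, as are all adjusted p below unless another test is named).

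miR-29c-3p had 759, 282, 602, 470.2 and 775 CPM at 1 week against 10657, 13201, 19102, 26222 and 25141 CPM at 14 months (log2 fold change 5.03 ± 0.35, adjusted p = 4.41e-12). Its near-equal partner miR-29a-3p gave 5.02 ± 0.35. The other strands of these hairpins were scarce but moved the same way. miR-29c-5p went from 2.36 ± 0.69 to 69.0 ± 22.5 CPM (4.80 ± 0.29). The other 2 tested 5p strands were picked out after their values were seen. miR-29a-5p went from 0.140 ± 0.210 to 9.43 ± 5.29 CPM, with no count in 3 of the 5 libraries of 1 week, and miR-29b-2-5p from 0.470 ± 0.577 to 6.21 ± 2.39 CPM. Without mouse 27 their fitted log2 fold changes grew from 5.22 to 6.22 and from 3.32 to 4.27.

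In all, 6 of the 7 miR-29 entries were tested, and all 6 were higher under each scaling. The 3p strands reached the filter level at both ages, while the 5p strands reached it at 14 months only, so that the filter favoured their direction. The 7th had no count at 1 week and 22 counts at 14 months. The summed level of the family was 1231 ± 438 CPM at 1 week and 41621 ± 14807 CPM at 14 months, which is 0.191% and 3.35% of all counts. Most of the sum at 14 months was the near-equal miR-29a-3p (18719 CPM) and miR-29c-3p (18865 CPM). If these hold the same reads, the sum and the shares count them more than once.

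The imprinted miRNAs moved the other way. The maternal copy of the Dlk1-Dio3 domain gives rise to one of the largest miRNA clusters in mammals, and its mature miRNAs with a RefSeq place and enough counts (53 entries from 37 precursors) lay between chr12:109572004 and chr12:109743486. Of 98 entries on the list 56 were tested, and all 56 were lower with groups that did not overlap, under each scaling. Of these, 38 reached the filter level only at 1 week, so that the filter favoured their direction. The other 18 reached it at both ages and all were lower as well, with a median log2 fold change of -5.51, while the median of all 279 such entries was 0.52. Of the 42 entries that were not tested, 41 had the higher mean at 1 week and 1 had no count in the 10 libraries, with 1831 counts in all at 1 week and 11 at 14 months. The cluster's summed level was 20146 ± 7962 CPM at 1 week, from 13387 to 32458, and 367 ± 162 CPM at 14 months, from 203 to 593. Its share of all counts was 3.11% and 0.0306%.

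miR-379-5p was the most abundant member. It had 3183, 5252, 11910.0, 5582 and 21209.8 CPM at 1 week, and 34.3, 129, 96.5, 67.9 and 41.2 CPM at 14 months. Mouse 27 was the highest and mouse 1 the lowest at 1 week, and mouse 1 was still far above every library of 14 months (log2 fold change -7.0 ± 0.63, adjusted p = 7.04e-10). miR-411-5p, from the next hairpin, was more even at 1 week, at 1832, 2086, 2374, 2133 and 2721 CPM, against 16.4, 72.0, 56.6, 44.7 and 26.7 CPM at 14 months (-5.69 ± 0.56).

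miR-382-5p had 948, 1244, 1675, 1227 and 2162 CPM at 1 week and 4.48, 15.3, 8.58, 7.36 and 2.70 CPM at 14 months (-7.60 ± 0.49, adjusted p = 1.21e-12). miR-431-5p, from the proximal part of the cluster, fell from 182 ± 41.8 CPM to 0.427 ± 0.465 CPM, with no count in mice 22 and 23 (-8.62 ± 0.74). miR-376b-3p kept the most among the abundant members, at 806 ± 412 CPM and 99.4 ± 49.3 CPM (-3.02 ± 0.56). Other members among the 12 largest falls were miR-127-5p, miR-494-3p, miR-434-3p, miR-409-3p, miR-134-5p and miR-369-3p, between -6.77 and -6.15. For miR-134-5p, mouse 22 held 10.9 CPM of a mean of 3.99, and without that mouse the value was -6.84. miR-323-3p, picked out after its values were seen, had 2136 counts at 1 week and 1 at 14 months, a ratio of 816 after scaling with a 95% counting interval of 146 to 32243. Without mouse 24, which held that count, its fitted log2 fold change went from -8.99 to -10.49.

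**Figure D2:**
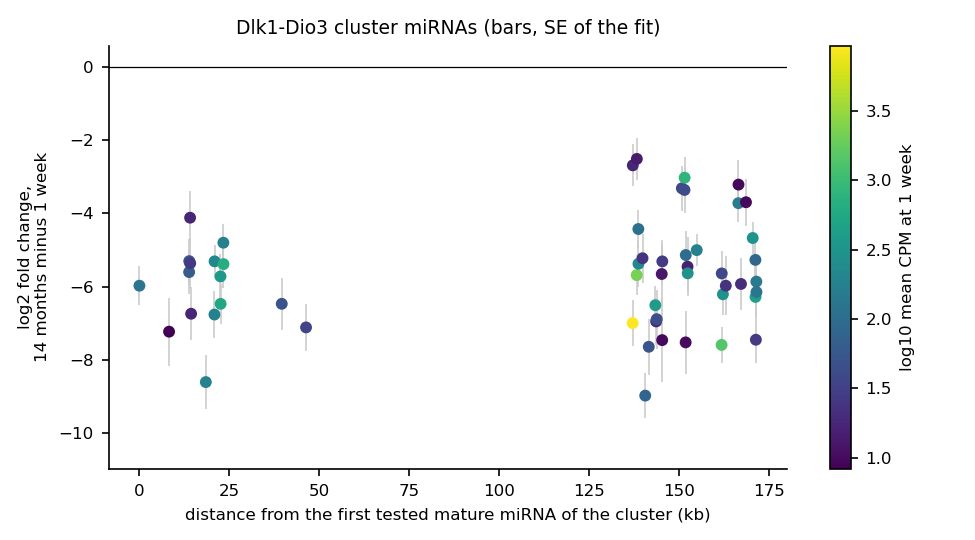
log2 fold change with its SE for the 53 tested Dlk1-Dio3 entries with a place in RefSeq, against the distance in kb from the first of them, coloured by log10 mean CPM at 1 week. Every point lies at -2.51 or below, both in the proximal group of hairpins and in the distal one, which begins with miR-379.

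Hairpins of other imprinted genes showed the same direction. miR-483-5p, hosted by the growth factor gene Igf2, had 978, 1395, 2044, 1733 and 1128 CPM at 1 week and 0, 0.727, 0, 0.526 and 3.04 CPM at 14 months. It was the deepest fall with at least 50 CPM, at a log2 fold change of -10.36 ± 1.07 (adjusted p = 5.98e-09). Of its 11 counts at 14 months 9 came from mouse 25, and without that mouse the value was -11.96. miR-483-3p kept 1 count at 14 months, from mouse 25, against 1510 counts at 1 week (ratio 577, 95% counting interval 103 to 22798).

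miR-675-3p, cut from H19, had 24.7, 33.2, 54.4, 21.9 and 93.3 CPM at 1 week and no count in any library of 14 months. Against a floor of 3 counts over the age group it was at least 192-fold lower, or at least 111-fold without mouse 27. Its fitted fall was the largest below 50 CPM. All 3 tested entries of the H19 and Igf2 loci were lower under each scaling, and all 3 reached the filter level only at 1 week. The fourth had 83 counts at 1 week and none at 14 months.

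The Gnas and Mest loci gave 4 tested entries, all lower under each scaling. miR-298-5p had 26.1, 86.1, 149.9, 79.8 and 174 CPM at 1 week and a single count at 14 months, in mouse 21 (ratio 1194, 95% counting interval 214 to 47195; the fitted log2 fold change went from -9.35 to -10.87 without that mouse). Its neighbour miR-296-3p had 1279 counts against 2, both in mouse 22 (ratio 244, 67.5 to 2019), and went from -7.38 to -9.66 without that mouse. miR-335-5p, hosted by Mest, kept more: 2020 ± 491 CPM at 1 week and 356 ± 73.7 CPM at 14 months (-2.51 ± 0.18). miR-335-3p, its other arm, gave -3.24 ± 0.37. miR-335-5p was the only entry of these 2 lists at the filter level at both ages.

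Hepatocyte miRNAs were higher on the TMM scale. Of 10 tested entries 9 were higher and 1 did not pass. Among the 9 that reached the filter level at both ages, 8 were higher, with a median log2 fold change of 1.42, while 44.8% of all 279 such entries were higher and their median was 0.52. With library totals 7 of the 10 were higher and none lower, against 20.5% and 52.7% over all entries. The summed level of the list was 457750 ± 71531 CPM at 1 week and 860309 ± 101998 CPM at 14 months on the TMM scale. Its share of all counts hardly differed, at 70.4% ± 3.8 and 70.1% ± 2.1. miR-194-5p, made with miR-192 from a shared transcript on chromosome 19 and from a copy on chromosome 1, had 2075, 1739, 1409, 1630.1 and 1376 CPM at 1 week. At 14 months it had 10833, 9250.3, 10338, 10103 and 11460.0 CPM. It was even within both ages, and its 2.66 ± 0.13 had the smallest p (adjusted p = 4.13e-15; 1.72 with library totals). miR-192-5p had 12633, 7769, 6050.2, 12946 and 4220.3 CPM against 54606, 43344, 42493, 58234 and 59231 CPM (2.56 ± 0.21), and its passenger strand miR-192-3p rose further, from 25.9 ± 15.2 to 399.5 ± 61.9 CPM (3.95 ± 0.31).

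miR-122-5p alone made up 55.6% to 67.5% of the counts of each library. On the TMM scale its means were 402281 ± 68351 and 717142 ± 90215 CPM (log2 fold change 0.83 ± 0.12, adjusted p = 7.97e-07), but with library totals the value was -0.08 and did not pass (adjusted p = 0.174). As a plain share of counts it was 61.8% ± 4.3 at 1 week and 58.4% ± 2.5 at 14 months (SD, n = 5 each), a difference that did not pass an exact two-sided permutation test (p = 0.175, adjusted over 4 single-value tests 0.349). miR-148a-3p and miR-126a-3p, the latter the main miRNA of endothelial cells, were both higher by 0.77 on the TMM scale, and at -0.15 each with library totals. For these 3 most abundant miRNAs the direction thus depended on the scaling.

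Other abundant miRNAs, the rest of the 10 highest by mean, rose under each scaling, except for miR-16-5p. They were miR-26b-5p (1.39 ± 0.18), let-7a-5p (1.74 ± 0.14), let-7f-5p (1.75 ± 0.15), let-7c-5p (1.69 ± 0.17), miR-192-5p and miR-21a-5p. miR-21a-5p, a miRNA induced in injured and inflamed tissue, varied widely at 14 months: 9986, 22327, 33850.2, 25799 and 14789 CPM, against 4435, 3460.0, 2773, 3966 and 2173 CPM at 1 week (2.67 ± 0.28, adjusted p = 5.03e-09). miR-16-5p spread from 5951 CPM in mouse 1 to 29751 CPM in mouse 27 at 1 week, around the 12119 to 15653 CPM of 14 months (-0.13 ± 0.27, adjusted p = 0.657). With library totals it was lower, at -1.04.

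let-7 miRNAs, known for their rise as animals mature, were mostly higher. Of 16 tested entries 13 were higher and 3 lower, against 35.5% and 37.3% over all entries. With library totals the counts were 10 and 4, against 20.5% and 52.7%. let-7g-5p led. It had 1819.5, 1279, 1457, 1309 and 814 CPM at 1 week and 13619, 10606, 13874, 13269 and 17725 CPM at 14 months (3.37 ± 0.19, adjusted p = 1.57e-13; 2.43 with library totals). let-7d-5p (1.61 ± 0.15) and let-7e-5p (0.97 ± 0.15), both singled out after their values were seen, rose as well, although let-7e-5p did not pass with library totals (0.03).

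let-7i-5p went against its relatives. It had 2558, 2417, 3636, 2959 and 3179 CPM at 1 week and 1996, 1865, 1963, 2647 and 2203 CPM at 14 months, so that only mouse 24 overlapped the younger group. Its log2 fold change was -0.47 ± 0.14 (adjusted p = 0.00568), and -1.39 with library totals. The call was lost without mouse 5 (-0.34, adjusted p = 0.0676) or without mouse 23 (-0.36, adjusted p = 0.0707). The third lower entry was let-7d-3p, the passenger strand of let-7d, at -2.02 ± 0.46, and the second, let-7j, was near-equal to let-7i-5p. miR-98-5p (0.46 ± 0.17) reversed, to -0.48 with library totals and to -0.04 with DESeq2's size factors.

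**Figure D3:**
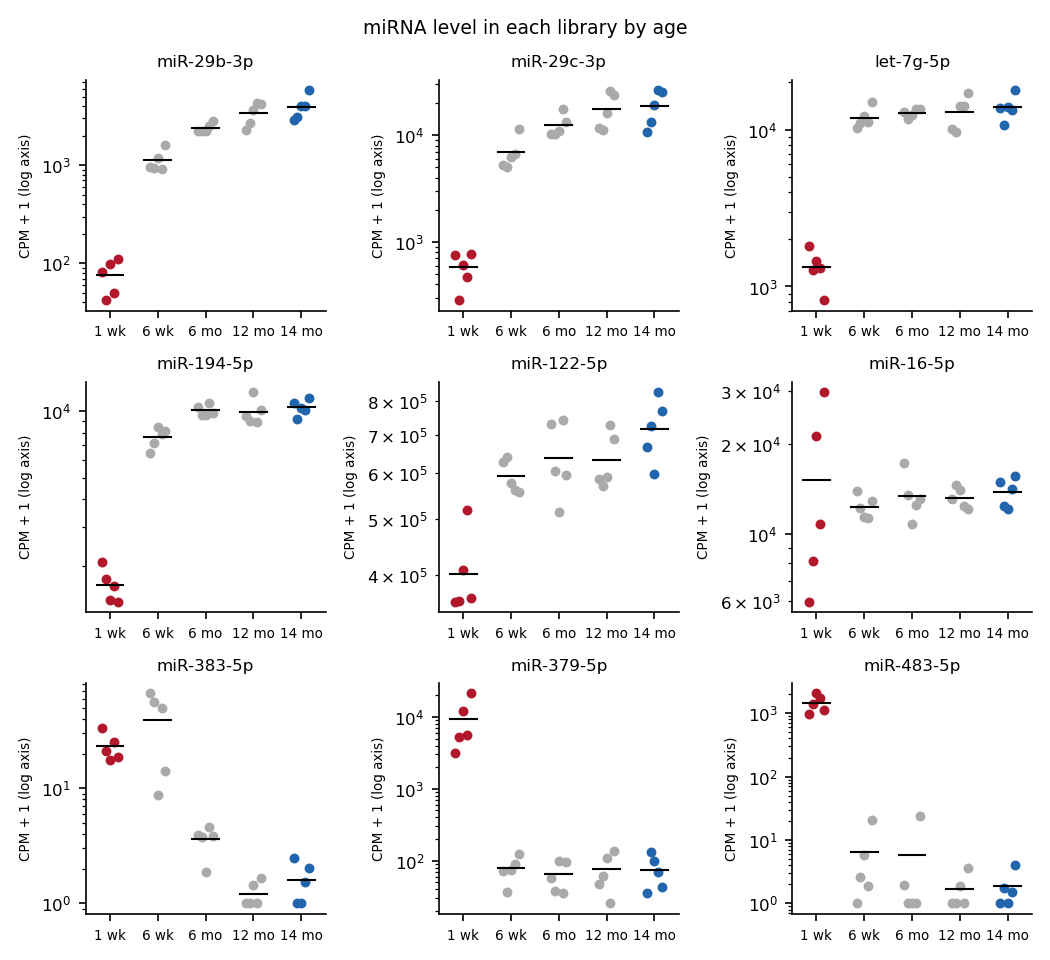
CPM + 1 on a log axis for 9 miRNAs in all 25 libraries, with 1 week in red, 14 months in blue, the other ages in grey and a black bar at each mean. miR-29b-3p and miR-29c-3p have higher means at each later age, let-7g-5p and miR-379-5p are near their 14-month level by 6 weeks, and miR-383-5p is still high at 6 weeks.

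The other ages show where along the life span the level of 14 months was reached. Between 14 months and 6 weeks, 15 of the 391 entries (3.84%) differed, 13 higher (3.32%) and 2 lower (0.512%) at 14 months, by the same test. That test is the difference between the change from 1 week to 14 months and the change from 1 week to 6 weeks. Libraries of 6 weeks were shallower (641579 to 1738208 counts), and fits without single libraries were not run for this contrast. miR-29b-3p had 1119 ± 297 CPM at 6 weeks and 3950 ± 1148 CPM at 14 months (1.82 ± 0.25, adjusted p = 2.08e-05). miR-29c-3p had 6930 ± 2588 and 18865 ± 6946 CPM (1.44 ± 0.30, adjusted p = 0.00443). These 3p strands, with miR-29a-3p, were thus still higher at 14 months than at 6 weeks, while the 3 tested 5p strands did not pass (0.04 for miR-29c-5p, 0.39 for miR-29a-5p and 1.06 for miR-29b-2-5p).

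miR-137-3p, miR-221-3p, miR-222-3p and miR-194-5p also passed this test, by 1.33, 0.61, 0.86 and 0.45. Others were picked out because they passed it. miR-383-5p had 22.3 ± 6.5 CPM at 1 week and 38.1 ± 26.1 CPM at 6 weeks, but 0.607 ± 0.651 CPM at 14 months, so its fall came after 6 weeks (-5.83 ± 0.66 against 6 weeks, -5.08 ± 0.65 against 1 week). miR-3065-5p (means of 1.24, 1.20 and 14.3 CPM, youngest age first) and miR-184-3p (3.61, 1.87 and 15.7 CPM) rose after 6 weeks, by 3.56 ± 0.75 and 2.93 ± 0.63 from 6 weeks. Against 1 week miR-184-3p was higher by 2.15 ± 0.51, or by 2.81 without mouse 5. The remaining entry that was lower than at 6 weeks was an unconservative one.

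By contrast let-7g-5p (11886 CPM at 6 weeks), miR-192-5p (41973), miR-379-5p (78.4) and miR-382-5p (13.4) did not pass that test. Their log2 differences between 14 months and 6 weeks were 0.22, 0.30, -0.11 and -0.96, against 3.37, 2.56, -7.0 and -7.60 from 1 week to 14 months.

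A cluster on the X chromosome between Fmr1 and Slitrk2, whose miRNAs are known from the testis, was nearly without counts at 1 week. miR-741-3p, which of these ages reached the filter level only at 14 months, had no count in any of the 5 libraries of 1 week and 28.4, 27.6, 15.4, 17.9 and 46.6 CPM at 14 months. Against a floor of 3 counts over the group it was at least 248-fold higher, or at least 146-fold without mouse 27, and its fitted rise was the largest below 50 CPM. At 6 weeks its mean was 1.26 CPM, at 6 months 12.1 and at 12 months 44.3. Of the 33 entries of the cluster 31 were too scarce to test. Of those, 26 had counts at 14 months only, 470 in all, and 5 had none at either age; some of them share counts, as miR-465a-3p, miR-465b-3p and miR-465c-3p do. The second tested entry, miR-547-3p, was present at both ages (0.975 and 4.09 CPM). It was higher by 1.85 ± 0.57, or by 2.87 without mouse 27, and did not pass with library totals (0.93).

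Markers of other cell types did not move as one. Erythroid miRNAs were lower in 4 of 5 tested entries, against 37.3% over all entries, and in all 5 with library totals, against 52.7%. Their summed levels were 417 to 920 CPM at 1 week and 188 to 334 CPM at 14 months. The newborn liver is known to still make red blood cells. miR-486a-5p, which shares its counts with miR-486b-5p, went from 105 ± 35.3 to 18.8 ± 5.7 CPM (-2.49 ± 0.30) and miR-144-3p from 229 ± 98.5 to 63.7 ± 25.4 CPM (-1.84 ± 0.35). miR-451a, at 279 ± 127 and 165 ± 55.4 CPM, did not pass on the TMM scale (-0.76, adjusted p = 0.0565). It was lower with library totals (-1.71) and without mouse 4 (-0.86), mouse 27 (-0.96) or mouse 21 (-0.88).

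Of 9 tested immune entries 4 were lower and 5 did not pass, and 1 of the 4 reached the filter level only at 1 week. That is near the 37.3% lower over all entries; with library totals 7 of the 9 were lower, against 52.7%, and with DESeq2's size factors 6, against 45.3%. miR-223-3p, of neutrophils and monocytes, had 1418, 1571, 2472, 1951 and 2692 CPM at 1 week and 361, 379, 496, 669 and 383 CPM at 14 months (-2.14 ± 0.22, adjusted p = 1.91e-09). miR-142a-3p, shared by blood cells, was lower by a small margin (-0.52 ± 0.21) and lost its call in 6 of the 10 fits that left out 1 library, those without mouse 1, 3, 5, 22, 23 or 25 (adjusted p from 0.0978 to 0.167). miR-150-5p, of lymphocytes and singled out after its values were seen, had 53.7 to 106 CPM in 4 mice of 1 week but 369 in mouse 27, and 178 to 317 CPM at 14 months. Its value was 0.85 ± 0.41 (adjusted p = 0.0646), or 1.76 (adjusted p = 6.12e-06) without mouse 27, and it also passed without mouse 22 (0.95), 23 (1.01) or 25 (0.97).

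Of 7 tested miRNAs of bile duct and other epithelium, 4 were lower (37.3% over all entries) and 1 higher. With library totals and with DESeq2's size factors alike, 6 were lower and 1 higher, against 52.7% and 45.3% lower over all entries. miRNAs of the miR-200 group led the lower ones: miR-429-3p fell by 2.10, miR-200b-3p fell by 1.30 and miR-200a-3p fell by 0.79 on the log2 scale. miR-203-3p, known from stratified epithelium, was higher in every library of 14 months (629 to 1057 CPM against 223 to 301 CPM; 1.65 ± 0.16). The skeletal muscle miRNA miR-206-3p had 275, 148, 481, 50.4 and 989 CPM at 1 week and 0.676 to 4.48 CPM at 14 months (-7.47 ± 0.72, or -6.77 without mouse 27), and miR-1a-3p 6.37 to 119 CPM against 2.57 to 6.76 CPM (-3.20, or -2.13 without mouse 27). Both reached the filter level only at 1 week, which favoured a fall. The summed level of the muscle list ran from 61.3 to 1128 CPM at 1 week and from 9.47 to 11.6 CPM at 14 months. Whether muscle carried over with the livers of pups contributed to other values was not tested.

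Among miRNAs of stellate and smooth muscle cells, the sources of liver collagen, 7 of 9 tested entries were higher and 1 lower. Over all entries 35.5% were higher and 37.3% lower. With library totals 2 of the 9 were higher and 3 lower, against 20.5% and 52.7% over all entries. miR-143-3p was higher by 0.77 ± 0.14, with -0.16 under library totals, and miR-145a-5p by 1.39 ± 0.18. miR-199a-3p and miR-199b-3p, which share their counts, were at 0.30 and reversed to -0.63 with library totals and to -0.20 with DESeq2's size factors. Their call was also lost without mouse 3 (0.27), mouse 27 (0.24), mouse 23 (0.35) or mouse 24 (0.29). The endothelial miR-126a-5p was at 0.37 ± 0.20 and did not pass (adjusted p = 0.0937), but did without mouse 5 (0.62), 21 (0.47) or 22 (0.47), and had -0.56 with library totals. Of 6 tested neural and endocrine entries, miR-137-3p rose from 19.6 ± 9.5 to 212 ± 76.8 CPM (3.42 ± 0.38). miR-375-3p of endocrine cells, picked out after its values were seen, fell from 9.89 ± 6.19 to 0.445 ± 0.463 CPM (-4.42 ± 0.76) and reached the filter level only at 1 week. miR-7a-5p and its near-equal miR-7b-5p did not pass (0.20 and 0.23), except without mouse 27 (0.60 and 0.63), and stood at -0.70 and -0.67 with library totals.

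**Figure D4:**
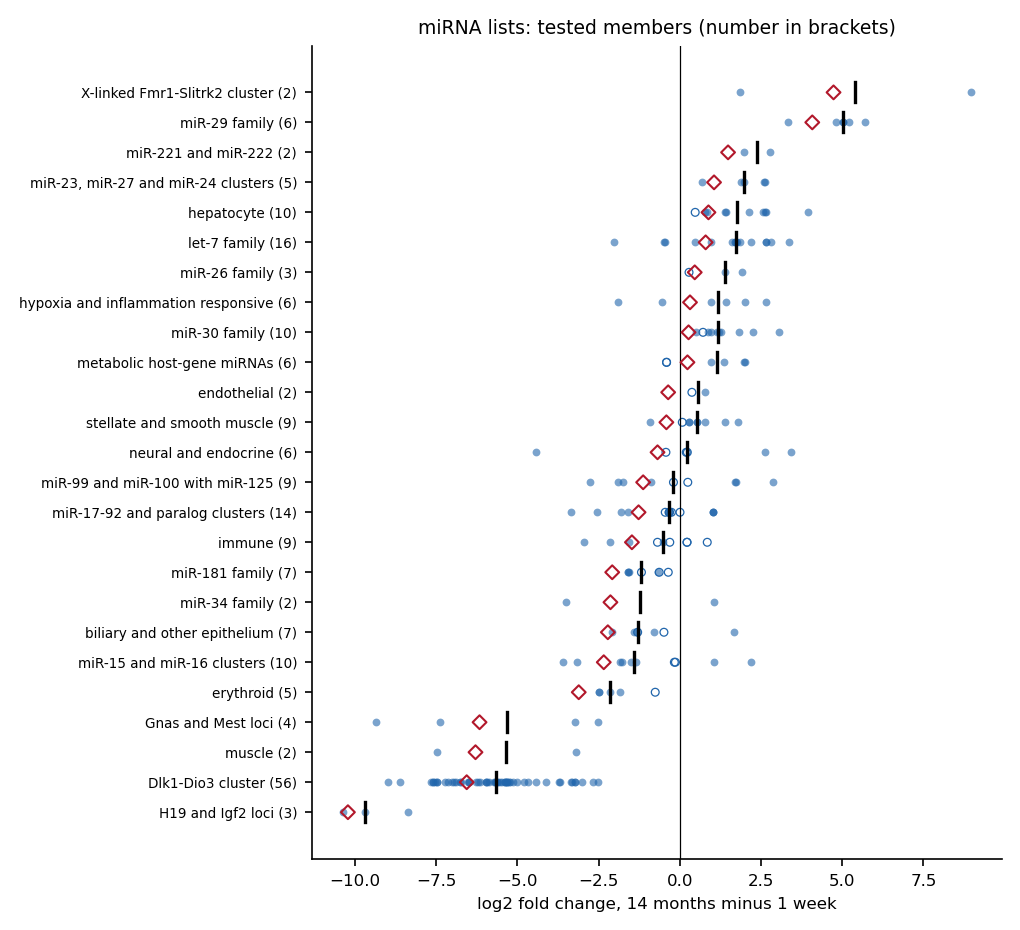
log2 fold change (14 months minus 1 week) of each tested member of 25 miRNA lists, filled where the adjusted p was under 0.05 and open where not, with a black bar at the list's median and a red diamond at the median under library totals. The miR-29 median (5.03) and the Dlk1-Dio3 median (-5.65) keep their side of zero under library totals, while the stellate and endothelial medians, among others, change sides.

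Families that are known for control of growth and metabolism were mixed. The miR-23, miR-27 and miR-24 clusters had 5 of 5 tested entries higher, against 35.5% over all entries. With library totals 4 were higher, against 20.5%. miR-23a-3p went from 548 ± 241 to 3309 ± 685 CPM (2.59 ± 0.21) and miR-27b-3p from 1051 ± 259 to 4113 ± 454 CPM (1.97 ± 0.15); miR-23b-3p (2.62) and miR-27a-3p (1.89) are their near-equal partners. miR-221-3p and miR-222-3p, 2 miRNAs of 1 X-linked transcript with 1 seed, rose together. The former had 120.4, 109.9, 159, 92.0 and 163 CPM at 1 week and 985, 1056, 932, 765 and 728 CPM at 14 months (2.79 ± 0.18, adjusted p = 6.59e-13), and the latter gave 1.98 ± 0.24.

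Among the 12 largest rises were also miR-22-5p (3.08 ± 0.30) and miR-350-3p (2.91 ± 0.35), which are on none of the lists. In the miR-30 family 9 of 10 tested entries were higher (35.5% over all entries), but only 4 with library totals (20.5% over all entries). miR-30b-5p (3.04 ± 0.30) and miR-30c-5p (2.25 ± 0.16) were the highest, and miR-30a-5p had 1.25 ± 0.11. miR-26a-5p rose by 1.93 ± 0.17. Among miRNAs that sit in genes of metabolism, miR-378a-3p, from an intron of Ppargc1b, went from 34.0 ± 8.2 to 138 ± 14.2 CPM (2.02 ± 0.20). miR-103-3p and miR-107-3p, in introns of the Pank genes, were near-equal and did not pass (-0.41, adjusted p = 0.138; -0.53, adjusted p = 0.0463, without mouse 1). miR-210-3p, the main miRNA induced by low oxygen, was lower (18.3 ± 5.5 and 4.87 ± 1.77 CPM; -1.89 ± 0.38).

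The miR-17-92 cluster and its paralogs, known for driving cell division, had 3 entries higher, 6 lower and 5 that did not pass of 14. Under library totals the counts were 0, 11 and 3. Over all entries 35.5% were higher and 37.3% lower, or 20.5% and 52.7% under library totals. Of the 6 lower ones 2 reached the filter level only at 1 week; among the 12 entries that reached it at both ages, 3 were higher, 4 lower and 5 did not pass. The lower ones included miR-93-5p and miR-25-3p, at -0.35 each; their calls were lost in 9 and 8 of the 10 fits without 1 library, with adjusted p up to 0.298 (without mouse 5). Higher ones were miR-19a-3p and its near-equal miR-19b-3p, at 1.03 each, which passed neither with library totals (0.08) nor with DESeq2's size factors. miR-34a-5p, a target of p53 known to rise in ageing tissue, went from 368 ± 280 to 761 ± 206 CPM (1.05 ± 0.35, adjusted p = 0.00936). Mouse 27 at 1 week, with 851 CPM, lay within the 523 to 1049.8 CPM of 14 months, and miR-34a-5p passed neither with library totals (0.12, adjusted p = 0.779) nor with DESeq2's size factors (0.57, adjusted p = 0.145). miR-449a-5p, with the same seed, fell from 8.70 ± 3.67 to 0.729 ± 0.636 CPM (-3.51 ± 0.65), having reached the filter level only at 1 week.

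Of 7 tested miR-181 entries, miRNAs of lymphocytes and their precursors, 4 were lower (37.3% over all entries) and 3 did not pass. Of the 7, 5 reached the filter level only at 1 week, which favoured a fall. Of the other 2, 1 was lower and 1 did not pass. miR-181b-5p was at 9.27 ± 1.90 and 3.14 ± 1.39 CPM (-1.58 ± 0.38) and miR-181a-5p at 21.1 ± 5.3 and 13.4 ± 4.75 CPM (-0.67 ± 0.27), a call that was lost without mouse 5, 24 or 25 (adjusted p from 0.118 to 0.151). The miR-99, miR-100 and miR-125 group split. miR-125a-5p ranged from 302 CPM in mouse 1 to 14057 CPM in mouse 27 at 1 week, and from 361 to 1068 CPM at 14 months. Its log2 fold change of -2.76 ± 0.69 shrank to -1.66 (adjusted p = 0.0131) without mouse 27, and that of miR-125b-5p from -1.74 to -0.78, which did not pass (adjusted p = 0.173).

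Seeds were compared next, by summing the counts of all miRNAs with 1 seed. Such a sum can count a read more than once where near-equal entries, such as miR-199a-3p and miR-199b-3p, hold the same reads. Of 234 seed groups with a sequence, 181 (77.4%) differed between the ages, and with the 98 tested entries that have no sequence 234 of 332 (70.5%) did. The 6 with the smallest p belonged to miR-194-5p (2.78 ± 0.15), miR-29c-5p (4.92 ± 0.30), miR-382-5p (-7.48 ± 0.49), the pair miR-221-3p and miR-222-3p (2.79 ± 0.19), the miR-29 3p strands (5.19 ± 0.36) and miR-323-3p (-8.88 ± 0.64). For the miR-29 seed the sum went from 1181 ± 466 to 43270 ± 16037 CPM, most of it from the near-equal miR-29a-3p and miR-29c-3p.

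Members of 1 seed did not always move together. Of 36 seeds with at least 2 tested members, 11 had members called in opposite directions on the TMM scale and 5 under each of the 3 scalings. Over all entries 35.5% were higher and 37.3% lower, so entries with different seeds are often called in opposite directions too. How often was not computed, so the 11 do not set seed groups apart from other entries. The 36 also include near-equal pairs, such as miR-103-3p and miR-107-3p, which could hardly split. These 5 were picked out after their values were seen. In the seed of miR-15 and miR-16, known for restraint of the cell cycle, miR-195a-5p had 34.5, 36.6, 99.4, 25.8 and 158 CPM at 1 week and 335, 286, 331, 331 and 338 CPM at 14 months (2.19 ± 0.33). miR-322-5p, of the X-linked cluster with miR-503, had 452, 721, 1492, 761 and 2195 CPM at 1 week and 145, 69.8, 90.5, 146 and 176 CPM at 14 months (-3.16 ± 0.35). In both miRNAs the ages did not overlap. miR-15b-5p was lower (-1.83 ± 0.43; -1.24 without mouse 27, which had 1494 CPM). miR-15a-5p was higher by 1.06 ± 0.27 on the TMM scale, and did not pass with library totals (0.14) or DESeq2's size factors (0.57). miR-503-5p, the neighbour of miR-322, fell by 3.59 on the log2 scale, from 98.7 ± 38.7 to 8.01 ± 4.06 CPM.

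The other 4 seeds were those of let-7 (let-7i-5p against the rest), of miR-32-5p with miR-25-3p, and of the miR-99 and miR-100 strands. miR-32-5p rose from 26.4 ± 9.4 to 174 ± 24.2 CPM (2.73 ± 0.24), with miR-25-3p at -0.35 as given above. miR-100-5p and its near-equal miR-99a-5p rose (1.69 ± 0.20 and 1.73 ± 0.21) while miR-99b-5p fell (-0.87 ± 0.19), and the passenger strands miR-99a-3p (2.88 ± 0.46) and miR-99b-3p (-1.91 ± 0.48) split likewise. In these 5 groups the called members thus did not all move in 1 direction. The lower calls of let-7i-5p and miR-25-3p were lost in some fits without 1 library, as given above.

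**Figure D5:**
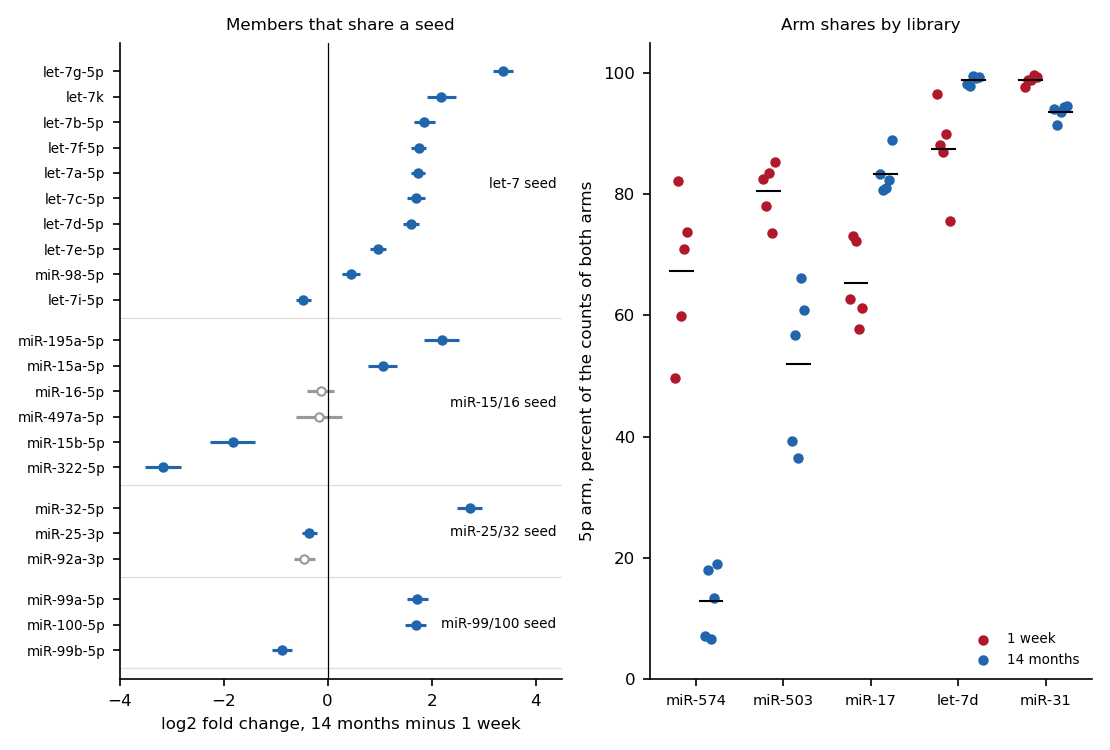
Left, log2 fold change with its SE for the members of 4 shared seeds, filled in blue where the adjusted p was under 0.05; right, the 5p arm as a percent of the counts of both arms in each library of 1 week (red) and 14 months (blue), with a black bar at the mean. let-7i-5p, miR-15b-5p, miR-322-5p, miR-25-3p and miR-99b-5p lie left of zero against relatives on the right, and the 5p share of miR-574 goes from 49.7% to 82.1% at 1 week to 6.63% to 18.9% at 14 months.

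The ratio of the 2 arms of a hairpin was tested because it does not depend on the scaling of a library. Of 47 hairpins with enough counts of both arms, 15 (31.9%) shifted (limma, adjusted p under 0.05). With a minimum of 50 counts 4 of 17 did, and 9 shifted without mouse 23 and 9 without mouse 25. Of the hairpins named below, miR-574, let-7d, miR-503, miR-31 and miR-152 had an arm short of that minimum, so it left them out. Over the 5 libraries of 14 months miR-574-5p had 71 counts, miR-503-5p 84 and let-7d-3p 208. Over those of 1 week miR-31-3p had 194 counts and miR-152-5p 64. miR-574 changed its main arm. Its 5p share was 49.7%, 82.1%, 59.8%, 70.9% and 73.7% in the libraries of 1 week, and 7.14%, 18.0%, 6.63%, 13.4% and 18.9% in those of 14 months (log2 ratio change -4.0 ± 0.49, adjusted p = 0.000164). Both arms moved: miR-574-5p fell from 44.9 ± 19.8 to 6.99 ± 3.37 CPM and miR-574-3p rose from 20.3 ± 8.8 to 50.5 ± 18.1 CPM, though the rise did not pass with library totals (0.41).

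In let-7d the 5p share went from 87.4% ± 7.6 to 98.8% ± 0.76 (3.61 ± 0.60, adjusted p = 0.000990), and in miR-503 from 80.6% ± 4.7 to 51.9% ± 13.3 (-1.97 ± 0.40, adjusted p = 0.00369). miR-31 went from 98.8% ± 0.74 to 93.6% ± 1.3 (-2.79 ± 0.45), with miR-31-3p at 7.33 ± 3.74 and 30.0 ± 3.05 CPM. The 5p strand of miR-31 was at -0.56 ± 0.23, a call that was lost in 6 of the 10 fits without 1 library, without mouse 3, 27, 21, 22, 23 or 24 (adjusted p from 0.0509 to 0.157). miR-192 and miR-152 kept 1 dominant arm at both ages, with shifts of -1.47 ± 0.30 and 1.80 ± 0.38. miR-152-3p, the main strand of the latter, was lower at 14 months (-0.54 ± 0.16, lost without mouse 5 at -0.39, adjusted p = 0.0614). It did not fall steadily: at 1 week, 6 weeks and 14 months its means were 5572, 2525 and 3834 CPM, and the last differed from 6 weeks as well (0.60 ± 0.16).

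Finally, 4 values of whole libraries were tested by exact two-sided permutation, with p adjusted over the 4. Thinned to 1543907 counts, a library of 1 week held 527.0 ± 26.7 named miRNAs and one of 14 months 461 ± 13.5 (lowest of 1 week 495, highest of 14 months 473). The exact permutation test gave p = 0.00794, the smallest that 5 libraries against 5 can give, and an adjusted p of 0.0317. Unthinned, the difference was -58.6 (adjusted p = 0.159). The share of the 10 most abundant miRNAs was 82.8% ± 1.7 and 83.4% ± 1.3 and did not pass (adjusted p = 0.603), nor did the library total (adjusted p = 0.603).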

How the data were processed

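Small RNA libraries of liver sEVs from 25 mice were made with a QIAseq miRNA kit after a miRNeasy serum/plasma extraction and read as pairs, per the labels' protocols. The authors deposited 1 table of raw counts per miRNA entry; Bowtie, edgeR and the build mm10 stand in the submitters' processing notes without versions or roles. Whether molecular identifiers were counted, the annotation and the mismatches allowed are not given in the sources used here.

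From these counts, edgeR 4.0.16 in R 4.3.3 tested 14 months against 1 week, with TMM scaling, filterByExpr over the 5 ages (about 5.75 CPM in 5 libraries), 1 quasi-likelihood fit over all 25 libraries and Benjamini-Hochberg adjustment over the 391 entries that passed, at 0.05. The other 1102 were not tested. The square root of the dispersion was 37.6%. Bars are SD over 5 libraries for levels and SE for log2 fold changes. Arm ratios were tested with limma 3.58.1 (at least 10 counts of each arm on average, 0.5 added), seeds by summing counts. Intervals of count ratios are 95% and cover counting error only. On data simulated for 14 months against 1 week (387 entries), 60.0% of 100 changes of 2-fold and 95.9% of 97 of 4-fold were recovered. Each entry was simulated at the higher of its 1-week mean and its mean over all 25 libraries, which favours recovery of scarce entries. Changes were drawn up or down at random, without the gap in scaling factors between the real ages. Of 155 calls there, 1.29% were unchanged entries. Larger changes are not in these rates, although 52 called entries of the real data fell at least 32-fold. Recovery was not compared between scalings, so the 1.29% is no error rate for the direction of a call.

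Entries were named by rule: the 12 largest rises and falls with at least 50 CPM, the largest of each below that, the 10 most abundant, up to 4 per list, those with the 6 most significant arm or seed results, and 22 more chosen after their values were seen. The members and the 25 lists were chosen with earlier results of these data known. Alternatives were DESeq2's size factors and library totals in edgeR, DESeq2 1.42.0, 2 other filters, the 10 libraries alone, library depth as a covariate, and single libraries left out. Nothing says that libraries came from separate litters or runs, so p-values measure the spread between these mice. Sequences were matched by name to RefSeq, with 924 of 1095 found, all of the length in the table.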

Additional observations from a re-analysis of the deposited data

Results flagged for a closer look

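Single libraries stood far from the other 4 of their age in 18 of 252 groups examined (a gap to the nearest other library of more than 0.71 of the range). About 1 in 20 groups of 5 normally distributed values would pass that cut-off. Some groups here lie near zero, and groups share libraries, so that rate is no baseline for the 18. For miR-298-5p, miR-483-3p, miR-296-3p and miR-323-3p, 1 library held the only counts, which by itself sets the flag. Of the 18, 5 were mouse 27 and 5 mouse 25, 3 were mouse 21, 2 mouse 22, 2 mouse 5 and 1 mouse 24.

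Mouse 27 at 1 week had the highest library total (6888928 counts; the others had 2095925 to 2621883). It was also the highest for miR-1a-3p (119 CPM, the others 6.37 to 31.5), miR-34a-5p (851 CPM, the others 185 to 369), miR-503-5p (165 CPM, the others 69.0 to 94.3) and miR-150-5p (369 CPM, the others 53.7 to 106). Mouse 5 at 1 week was the highest for miR-99b-5p (384 CPM, the others 221 to 268) and for the share of the 10 most abundant miRNAs (85.7%, the others 81.3% to 82.5%).

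At 14 months mouse 25 was the highest for miR-483-5p (3.04 CPM), miR-483-3p (0.338 CPM, the only count), miR-30c-5p (3688 CPM, the others 2362 to 2552) and miR-3065-5p (17.9 CPM, the others 12.4 to 13.8), and the lowest for miR-335-3p (0.676 CPM, the others 2.10 to 2.24). Mouse 21 was the highest for miR-298-5p (0.747 CPM, the only count), miR-27b-3p (4902 CPM, the others 3750.1 to 4060.5) and miR-574-3p (82.1 CPM, the others 38.9 to 48.3). Mouse 22 was the highest for miR-296-3p (1.45 CPM, the only counts) and the lowest for miR-195a-5p (286 CPM, the others 331 to 338). Mouse 24 held the only count of miR-323-3p (0.526 CPM).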

How the results depend on the processing

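The count of 285 called entries kept within 1.5 times under each of the 18 alternatives: 273 to 301 with 1 library left out, 272 without the deepest library of each age, 276 with DESeq2's size factors, 286 with library totals, 284 with the DESeq2 Wald test, 394 of 1493 unfiltered, 227 of 275 with a mean of at least 10 CPM, 278 of 378 in the 10 libraries alone and 286 with depth as a covariate. The number tested changed with the filter, from 391 in the main fit, so these counts do not share 1 base. What moved was the direction: 139 higher and 146 lower became 80 and 206 with library totals, 99 and 177 with DESeq2's size factors, 103 and 181 with the Wald test, 93 and 134 with at least 10 CPM, 116 and 162 in the 10 libraries alone, and 169 and 225 unfiltered. Without the deepest library of each age they became 117 and 155. Of 2168 values of named miRNAs under the alternatives, 2008 kept direction and call, 97 lost the call, 42 gained it and 21 reversed, none of the last with 1 library left out. Of the 110 named miRNAs that were called, 84 kept the call under every alternative that tested them.

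With library totals the reversed values were -0.082 for miR-122-5p, -0.15 for miR-148a-3p, -0.15 for miR-126a-3p, -0.72 for miR-146a-5p, -0.56 for miR-126a-5p, -0.16 for miR-143-3p, -0.63 for miR-199a-3p and miR-199b-3p, -0.70 for miR-7a-5p, -0.67 for miR-7b-5p and -0.48 for miR-98-5p. miR-199a-3p and miR-199b-3p were also at -0.20 with DESeq2's size factors and with the Wald test, at -0.095 with at least 10 CPM and at -0.021 without the deepest library of each age, and miR-98-5p at -0.040 with the size factors and -0.039 with the Wald test. The cause of these reversals was not tested.

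The 15 shifted arm ratios became 4 of 17 with at least 50 counts of each arm, where fewer hairpins were tested, and 9 to 16 with 1 library left out. Seed calls ran from 178 to 190. The difference in detected miRNAs at equal depth, -65.8, was -58.6 when not thinned (adjusted p = 0.159, exact permutation) and -73.8 to -58.2 with 1 library left out, where 4 against 5 libraries allow no adjusted p below 0.0635. No paired analysis was possible because each mouse number occurs at 1 age only. Below about 1 to 2 CPM at 14 months a miRNA could not be told from absent at this depth.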

Other observations

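Entries outside the lists also differed, though less often than the 72.9% over all entries. Of the 391 tested entries 211 were on a list, and 104 of the 285 called entries were on none of the 25 lists. Of the 285, 147 had a mean below 50 CPM. Among these scarce entries, chosen after their values were seen, miR-592-5p was higher by 4.68 on the log2 scale (5.67 without mouse 27) and miR-1948-5p by 5.49. Of the 52 tested unconservative entries 17 were called, 9 higher and 8 lower, a far smaller share than the 72.9% over all entries.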
